A study of Mus musculus and Homo sapiens with 12 samples.

Results

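Replication-dependent histone genes are the clustered gene copies that supply most histone protein while DNA is copied. Core histones H2A, H2B, H3 and H4 form the nucleosome, and the linker histone H1 binds where DNA enters and leaves it. The mRNAs of these genes rise in S phase, lack a poly(A) tail and end in a short stem-loop that is bound by SLBP, so they are seen in libraries made from total RNA and largely missed by poly(A) selection. Members were the protein-coding genes with names of the Hist1 to Hist4 families (or H1-, H2AC, H2BC, H3C and H4C in human) inside the histone clusters. The rule gave 67 mouse genes, all with counts listed among 54446 genes, and 69 human genes, of which 65 were counted among 58721. The other human members, H2AC18, H2AC19, H3C2 and H3C3, were not analysed here.

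Chromatin-associated RNA (caRNA) of wild-type cells was fragmented and pulled down with an antibody against 5-methylcytosine (m5C), a methyl mark on cytosine, to give the IP libraries; Input libraries came from fragments that were not pulled down. Each of 4 groups (mESC Input, mESC IP, K562 Input, K562 IP) held 3 libraries. mESC are mouse embryonic stem cells kept with LIF, CHIR99021 and PD0325901 and passaged away from their feeder cells, and K562 is a human erythroleukaemia line. The labels give growth of K562 with puromycin, which the paper states only for its lines that carry short hairpin RNAs. All 12 libraries were wild-type. The paper calls its replicates biological, but nothing in the labels says that they came from separate cultures. The p-values thus measure only the spread between these libraries. The labels call K562 a lymphoblast and give the same antibody entry to Input and IP within a line (none in mESC, m5C in K562), which goes against the titles. Groups follow the titles.

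Depth differed widely. Gene counts per library were 29007088 to 34752646 in mESC Input, 473398 to 592324 in mESC IP, 10477119 to 11865285 in K562 Input and 93110 to 111286 in K562 IP. Stem cell markers summed to 2127 to 2152 CPM (counts-per-million, the usual scaling, of the gene counts of a library) in mESC Input and 1055 to 1246 CPM in IP, with Sox2 listed at 0, and the 6 fibroblast markers to 52.7 to 55.5 CPM there and 35.9 to 71.4 CPM in IP, with Lum at 0. In K562 the erythroid markers summed to 266 to 273 CPM in Input and 454 to 629 CPM in IP, with HBE1 and HBG2 at 0, and the 5 lymphocyte markers to 0.382 to 1.21 CPM and 9.26 to 32.2 CPM, with MS4A1 at 0. The part of feeder-type RNA in the mESC values was not tested. The 3 K562 Input libraries differed over genes by about the sampling noise (chi-square per degree of freedom 0.912, 0.918 and 1.03 for the pairs), but their counts over 20 bins of GC content differed beyond it, the ratio of a pair varying by 1.04-fold to 1.08-fold between bins, and they were kept as 3 libraries.

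The stem-loop at the 3′ end was not part of the rule and marked nearly every member. A form of the histone 3′ stem-loop lay within 150 bases after the end of a coding block in 65 of 67 mouse and 69 of 69 human members (Hist1h2an and Hist2h2be had no match in this window). A narrower search, only after the last coding base of a gene, found it in 3 of 21851 other mouse protein-coding genes (0.0137%; Btbd10, H2afx and H2bfm) and in 4 of 19766 human ones (0.0202%; BTBD10, H2AX, H3-4 and H3-7). In members it began 24 to 61 bases after the end of the coding block in mouse, with a median of 33, and 25 to 70 bases after it in human, with a median of 38. One 16-base form, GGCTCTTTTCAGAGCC, was the most frequent, in 41 mouse and 40 human members.

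Stem-loops of the genes with the highest Input level in each class, with a second H4 form (Hist1h4i) and the H1 pair Hist1h1c and H1-2 for the comparison between lines, are shown 5′ to 3′ on the gene's strand, with the 16 bases of the stem-loop in capitals and 5 flanking bases on each side, from the mouse (GRCm38) and human (GRCh38) genomes.
Hist1h1a: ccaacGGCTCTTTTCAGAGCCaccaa
Hist1h1c: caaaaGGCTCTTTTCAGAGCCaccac
Hist2h2ac: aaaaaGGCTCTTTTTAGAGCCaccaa
Hist1h2bn: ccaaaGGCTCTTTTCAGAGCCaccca
Hist1h3e: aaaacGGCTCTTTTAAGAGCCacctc
Hist1h4h: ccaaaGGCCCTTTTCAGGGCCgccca
Hist1h4i: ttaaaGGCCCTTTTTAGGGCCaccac
H1-2: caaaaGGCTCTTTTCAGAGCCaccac
H2AC6: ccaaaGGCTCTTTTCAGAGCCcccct
H2BC11: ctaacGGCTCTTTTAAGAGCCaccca
H3C12: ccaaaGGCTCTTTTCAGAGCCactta
H4C9: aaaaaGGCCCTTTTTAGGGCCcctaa

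In mouse these stretches lie at chr13:23764387-23764412 (Hist1h1a, plus strand), chr13:23739507-23739532 (Hist1h1c, plus), chr3:96220413-96220438 (Hist2h2ac, minus), chr13:21754528-21754553 (Hist1h2bn, plus), chr13:23561898-23561923 (Hist1h3e, minus), chr13:23531453-23531478 (Hist1h4h, plus) and chr13:22040961-22040986 (Hist1h4i, minus). In human they lie at chr6:26055739-26055764 (H1-2, minus), chr6:26124664-26124689 (H2AC6, plus), chr6:27132316-27132341 (H2BC11, minus), chr6:27890315-27890340 (H3C12, minus) and chr6:27139649-27139674 (H4C9, plus). The H4 genes stood apart by sequence. All 13 mouse H4 members carried forms that no other mouse class carried: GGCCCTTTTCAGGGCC in 8, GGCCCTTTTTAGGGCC and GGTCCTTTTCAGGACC in 2 each, and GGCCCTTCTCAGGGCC in 1. The 15 human H4 members with counts listed carried 3 of these forms (in 10, 4 and 1 genes), again seen in no other class. The stem-loop, and with it the mature 3′ end, lay beyond the annotated gene in 16 of the 65 mouse members and in 0 of the 65 human ones with counts, so some mouse models stop at or near the stop codon and their levels per kb are not strictly comparable.

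Copies were far more alike in mouse than in human. The share of 50-base windows of a gene's exons found only once in its genome had a median of 98.8% for mouse H1, against 26.9% for H2A, 54.3% for H2B, 42.8% for H3 and 60.5% for H4. Human medians were 94.8% for H2B, 97.1% for H2A and 100% for H1, H3 and H4. Reads of core histone copies in mouse can thus be split between genes, and single values below are uncertain for such copies. Hist1h2ao, Hist1h2ap, Hist1h2bq, Hist1h2br and Hist2h2aa2 had no unique 50-base or 100-base window and still held 155 to 579 Input counts over the 3 libraries. The human genes H4C14, H4C15, H3C14 and H3C15 had none either, with 5 to 94 Input counts.

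**Figure D1:**
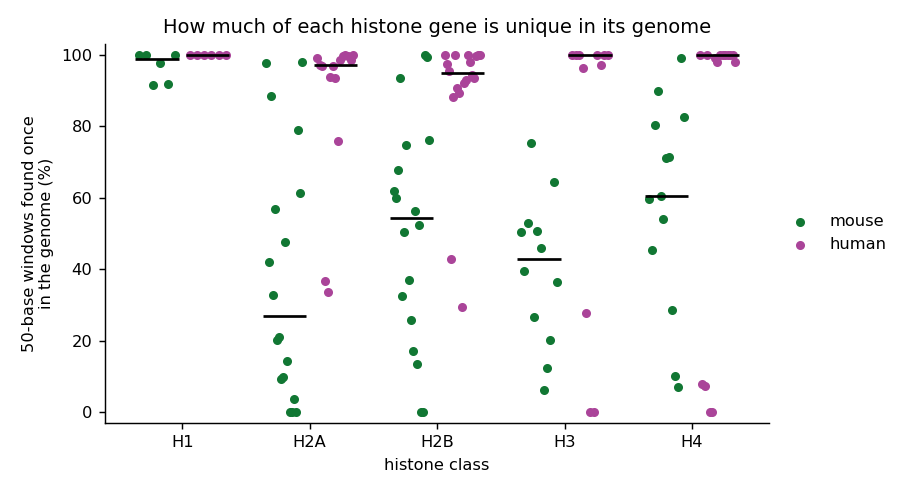
Share of 50-base exon windows that occur once in the genome (%), for each histone gene with counts listed (points; mouse green, human purple) by class, with the class median as a black line. Mouse H1 genes sit at 91.5% or higher, mouse core histone genes spread down to 0%, and human class medians sit at 94.8% or higher.

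Input counts were spread unevenly over the copies in both lines. Summed over members, histone RNA took 1240, 1175 and 1179 CPM in the mESC Input libraries and 652, 630 and 658 CPM in the K562 Input libraries. Different gene models stand behind these sums, so they were not tested between species. These are bulk cultures, in whose Input levels fewer cells in S phase and less histone RNA per cell cannot be told apart. In mESC the H1 class held 43.8% ± 0.77 (SD, n = 3) of the histone counts, H2B 20.6% ± 0.21, H4 15.9% ± 0.24, H2A 9.99% ± 0.31 and H3 9.70% ± 0.20. K562 showed another order, with H2B at 50.4% ± 0.59, H2A at 24.5% ± 0.25, H4 at 10.7% ± 0.20, H1 at 9.56% ± 0.26 and H3 at 4.86% ± 0.33. The top 5 genes held 43.7% of the mESC histone Input counts, and all were H1 genes (Hist1h1a to Hist1h1e). In K562 the top 5 held 48.9%, with H2AC6 first, followed by H2BC15, H2BC11, H2BC5 and H2BC4. The models of these 5 have 2 to 4 exon blocks, where 50 of the 65 human members have 1. Hist1h1d, the first of the top 5 in mESC, has an exon model of 7425 bases. How much of the counts of the top 5 genes of either line came from the short stem-loop mRNA was not tested.

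Per kb of exon, Hist1h1a had the highest Input level in mESC at 124 ± 4.04 CPM per kb (SD, n = 3), followed by Hist1h1b at 104 ± 3.69 and Hist1h1c at 84.9 ± 3.42. All 3 encode somatic linker histones. Below them came Hist1h2bn at 76.5 ± 2.87, then Hist2h2ac at 60.0 ± 3.02 and Hist1h2bm at 59.3 ± 1.78, which differed from each other by less than their spread. Hist1h1t, the testis linker histone, was near the low end at 1.61 ± 0.275 CPM per kb. The next H2A copy after Hist2h2ac was Hist1h2ak (46.0 ± 2.35), and the leading copies of the last classes were Hist1h4h and Hist1h4i for H4 (40.0 ± 2.57 and 32.3 ± 0.111) and Hist1h3e and Hist1h3g for H3 (27.3 ± 1.17 and 23.5 ± 1.87). In K562 the order began with H2BC11 at 60.4 ± 2.39 and H2AC6 at 56.6 ± 2.57 CPM per kb, whose ranges of 1 SD overlapped, then H2AC11 at 50.4 ± 2.96 and H2BC5 at 42.1 ± 1.84. H2BC8 followed at 30.4 ± 1.94. H1-2 and H1-4 were level at 29.5 ± 0.252 and 29.3 ± 0.701, H4C9 and H4C5 were at 23.7 ± 0.740 and 20.7 ± 0.912, and the H3 genes H3C12 and H3C10 were lower at 12.1 ± 0.873 and 10.4 ± 0.814. H1-1 in K562, the namesake of the leading mouse gene, had only 4, 8 and 0 Input counts. Hist1h1t, H2BC8 and H1-1, like Hist1h1c and Hist1h1d, were named after their values were seen.

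**Figure D2:**
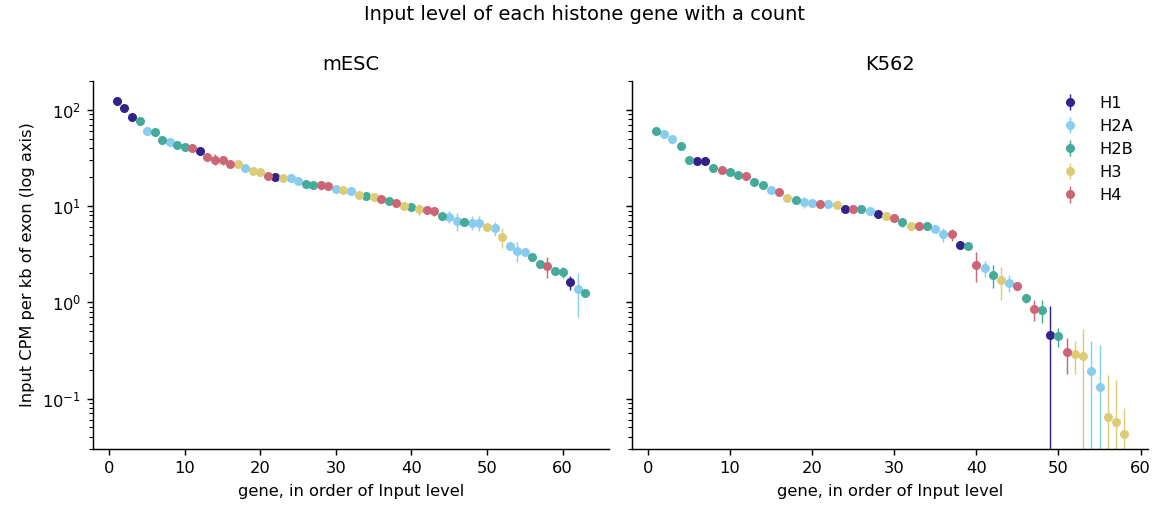
Input level of each histone gene with at least 1 Input count, as CPM per kb of exon (log axis; mean of 3 libraries with SD bars, cut at the axis where they reach below it), ordered from highest to lowest and coloured by class, in mESC (63 genes) and K562 (58 genes). H1 genes hold the top 3 places in mESC, with Hist1h1a at 124 CPM per kb, and H2B and H2A genes hold them in K562.

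Some members had no Input counts at all: Hist2h2aa1, Hist2h2bb, Hist2h3c1 and Hist3h2a in mouse, and H2AC7, H2AC16, H2BC10, H3C4, H4C6, H4C13 and H4C16 in human. The 4 mouse genes share 33.0% to 100% of their exon bases with another gene on the same strand, and H3C4 and H2AC7 share 96.6% and 85.3%, while the other 5 human genes at 0 share none. H3C12 shares 40.3% and held 351 Input counts, and Hist2h2aa2 and Hist2h3b, which are covered to 100% by a gene on the opposite strand only, held 175 and 287 Input counts.

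The question of the pull-down comparison is how much of each RNA the m5C antibody recovers relative to Input. In mESC the histone genes were lower in IP as a group. Of the 67 members 62 passed the filter on low counts, and of these 50 were lower in IP and 0 higher (edgeR quasi-likelihood test, adjusted p under 0.05), where 42.1% of all 20244 tested genes were lower and 39.9% higher. The median log2 IP/Input of the tested members was -2.31, against -0.17 for all genes and -0.69 for the other 15579 protein-coding genes. With the 4 members that had no IP count set to the bound given by 3 counts over the group, the members' median was -2.18. Scaling by library size alone raised the median of all genes to 0.80 and that of the members to -1.34, and kept the distance at -2.14, but left 34 members lower and 1 higher. With TMM scaling 0 members were higher also at an unadjusted p under 0.05, DESeq2 had 1 higher after adjustment, and so had edgeR without IP replicate 1. In CPM, 42 of the 62 members had all IP libraries below all Input libraries (27.6% of all genes) and 0 had them above (47.7% of all genes). Log2 IP/Input values below are with TMM scaling and are lower than the log2 ratios of the CPM values printed beside them.

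Counts were low in the pull-down: a member had a median of 689 counts over the 3 mESC Input libraries and of 6 over the 3 IP libraries, and 23 members reached 10 IP counts. Sums over a class rest on more counts. Records aligned to more than 1 place were not given to a gene, and summing a class does not bring them back. They made up 6.35% to 6.66% of records in mESC Input and 26.8% to 27.0% in mESC IP. Sums and ratios of the less unique core classes are thus uncertain too. All histone genes together fell from 1198 ± 36.7 CPM in Input to 508 ± 31.3 CPM in IP (SD, n = 3 each), a ratio of 0.424 ± 0.029. No IP library reached an Input library in any class.

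**Figure D3:**
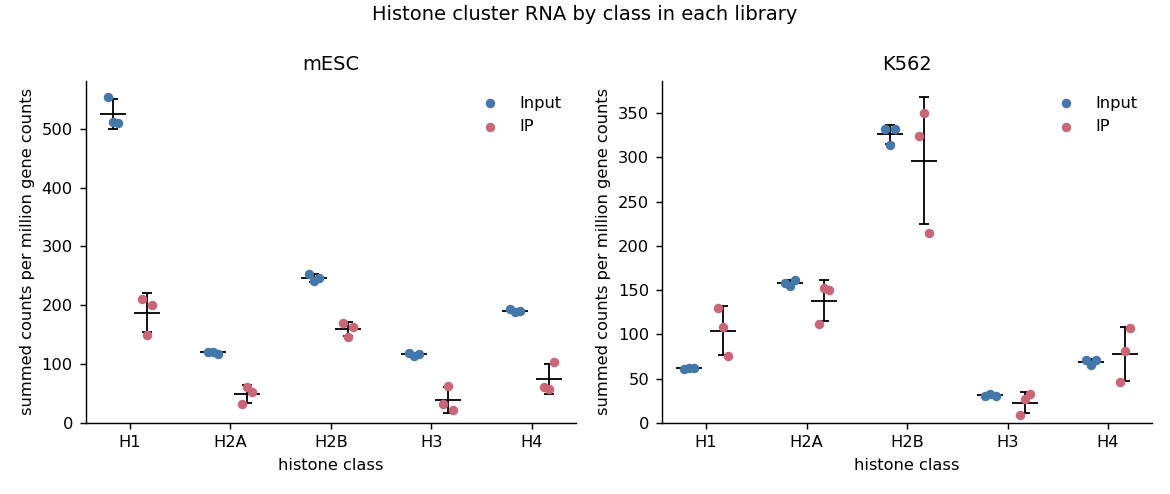
Counts of each histone class summed per library, in CPM of gene counts, for Input (blue) and IP (red) libraries of mESC and K562; points are libraries, black lines the mean with SD (n = 3). In mESC every class sits lower in all 3 IP libraries, by 2.80-fold for H1 and 1.55-fold for H2B, while in K562 H1 sits higher in IP and H2B, H3 and H4 overlap.

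Linker histone H1 gave the clearest single-gene values, since these genes are largely unique in sequence and, apart from Hist1h1t, abundant. The H1 sum was 554, 511 and 510 CPM in Input and 211, 150 and 201 CPM in IP, a ratio of 0.357 ± 0.065. Hist1h1a (chr13:23763666-23764406, GRCm38, plus strand) had 95.4, 91.2 and 89.7 CPM in Input and 31.7, 30.6 and 32.1 CPM in IP. Its IP libraries lay close together and well below Input, at a log2 IP/Input of -2.52 (SE 0.18, adjusted p = 2.7e-09). Hist1h1b gave 80.7, 75.7 and 76.2 CPM in Input against 38.0, 15.3 and 57.4 in IP, lower in every library but more scattered in IP (log2 -2.04, SE 0.23, adjusted p = 5.7e-07). Hist1h1e had 79.1, 67.8 and 68.7 CPM in Input and 10.6, 23.8 and 8.4 in IP. Its log2 IP/Input was -3.28 with TMM scaling (SE 0.29, adjusted p = 3.9e-08) and -2.30 by library size, the scale of these CPM values, and with TMM it was the lowest of the called members with at least 10 IP counts. Hist1h1e shares 25.7% of its exon bases with Hist1h2be on the same strand, and the effect of this on its own counts was not tested. Hist1h1c and Hist1h1d were lower too, at log2 -2.50 and -2.38. Hist1h1t, with 141 Input counts and 1 IP count, was not called (log2 -2.22, SE 1.13, adjusted p = 0.080).

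Histones H2A and H2B pair as dimers on the faces of the nucleosome, and their genes often lie head to head. In mESC 11 of 15 tested H2A genes and 12 of 17 tested H2B genes were lower in IP, with median log2 values of -2.49 and -1.67. The H2A sum fell from 120, 121 and 117 CPM to 31.7, 61.2 and 52.3 CPM (ratio 0.405 ± 0.127). The H2B sum fell from 253, 241 and 245 CPM to 169, 146 and 162 CPM (ratio 0.646 ± 0.050), the ratio nearest to 1 of the 5 classes, so that H2B made up 20.6% ± 0.21 of the histone counts in Input and 31.4% ± 1.86 in IP. Hist2h2ac, the leading H2A copy, had 31.6, 32.6 and 29.5 CPM in Input and 4.2, 20.4 and 15.2 in IP (log2 -2.14, SE 0.31, adjusted p = 1.0e-05). Hist1h2ak fell by 2.70 on the log2 scale on 9 IP counts (SE 0.42, adjusted p = 1.7e-05). Among H2B genes Hist1h2bn had 30.3, 28.1 and 29.03 CPM in Input and 6.3, 20.4 and 6.7 in IP (log2 -2.31, SE 0.33, adjusted p = 8.0e-06), with the groups apart. Hist1h2bm was called lower (log2 -1.61, SE 0.31, adjusted p = 1.5e-04), yet its IP libraries at 19.01, 6.8 and 33.8 CPM overlapped Input at 31.2, 30.1 and 31.9. That call was lost with library size scaling (log2 -0.64, adjusted p = 0.11) and with Input thinned to IP depth (log2 -0.35, adjusted p = 0.56), over a range of adjusted p from 4.7e-13 to 0.56.

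The smallest drops among the called genes with at least 10 IP counts were all in H2B genes. Hist1h2bc had 19.6, 18.9 and 19.2 CPM in Input and 19.01, 3.4 and 32.1 in IP, at log2 -1.06 (SE 0.36, adjusted p = 0.013), and Hist1h2bb had 24.99, 24.5 and 24.3 CPM in Input and 42.3, 18.7 and 11.8 in IP, at log2 -1.07 (SE 0.30, adjusted p = 0.0038). Both overlapped in plain CPM, and their calls were lost with library size scaling, where the log2 values were -0.08 (adjusted p = 0.86) and -0.10 (adjusted p = 0.80). Both calls held with relative log expression (RLE) scaling. The Hist1h2bc call was also lost with DESeq2, with the GC correction and without IP replicate 2 or any of the Input libraries, and the Hist1h2bb call without Input replicate 1. Over all alternatives the adjusted p ranged from 7.3e-07 to 0.92 for Hist1h2bc and from 4.7e-09 to 0.80 for Hist1h2bb. Hist1h2be had 44.9, 43.2 and 43.97 CPM in Input and 23.2, 27.2 and 33.8 in IP, all lower (log2 -1.60, SE 0.21, adjusted p = 3.7e-06). Hist1h2ba, the testis H2B, was the member with the highest value, 1.39 on 7 IP counts (SE 0.76, adjusted p = 0.10), and was named after its value was seen. The genes without IP counts allow only bounds: in CPM, Hist2h3c2 was at least 2.72-fold lower, Hist1h2ad at least 1.86-fold and Hist2h3b at least 1.63-fold, set against 3 counts over the 3 IP libraries.

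Histones H3 and H4 form the tetramer at the nucleosome's centre. All 11 tested H3 genes and 11 of 13 tested H4 genes were lower in mESC IP, at median log2 values of -2.40 and -2.46. The H3 sum was 118, 113 and 117 CPM in Input and 31.7, 62.9 and 21.9 CPM in IP (ratio 0.334 ± 0.184), and without IP replicate 2 the ratio was 0.231. The H4 sum was 194, 188 and 189 CPM against 61.3, 57.8 and 102.98 CPM (ratio 0.388 ± 0.132). Hist1h3e had 23.3, 21.7 and 23.4 CPM in Input and 14.8, 6.8 and 5.1 in IP (log2 -2.40, SE 0.36, adjusted p = 1.2e-05). For Hist1h3g all 6 IP counts came from replicate 2 (log2 -2.75, SE 0.60, adjusted p = 4.9e-04). Hist1h4h gave even IP libraries, 10.6, 10.2 and 8.4 CPM against 18.8, 17.6 and 20.03 in Input (log2 -1.93, SE 0.34, adjusted p = 6.9e-05). Hist1h4i fell by 2.55 on the log2 scale and Hist4h4 by 2.68 (SE 0.36 and 0.32, adjusted p = 7.0e-06 and 9.5e-07), with all IP libraries below Input in both.

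**Figure D4:**
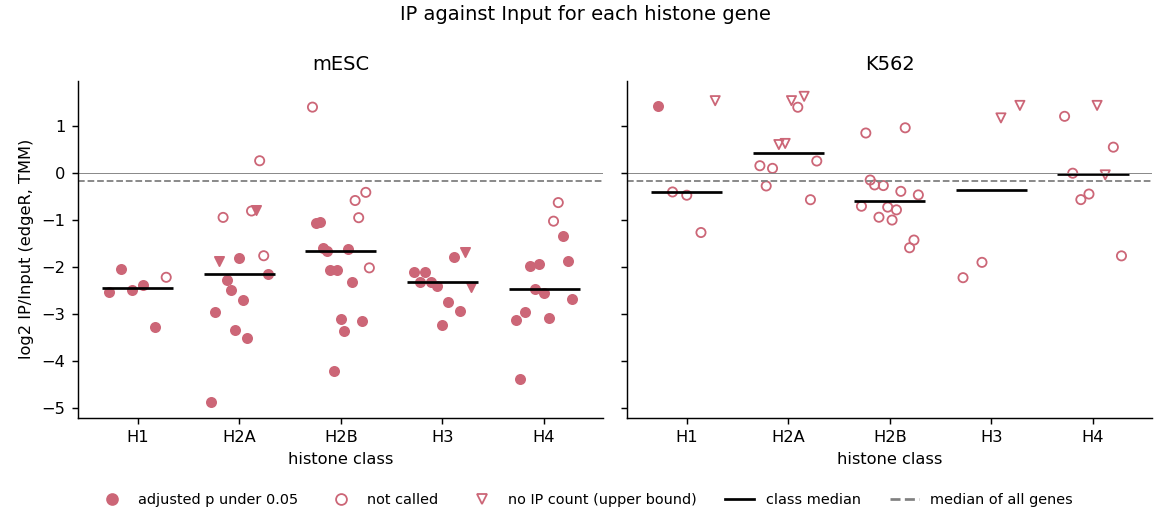
log2 IP/Input (edgeR on the TMM scale) of each tested histone gene by class in mESC (62 genes) and K562 (41 genes). Filled points have an adjusted p under 0.05, triangles mark genes without IP counts at the upper bound given by 3 counts, black lines are class medians with those genes at their bound, and the dashed line is the median of all genes tested. In mESC 60 of the 62 genes lie below 0, and in K562 the filled point is H1-2.

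Features of the members were set beside their log2 values in mESC as a description. Over the 58 tested members with an IP count, log2 IP/Input had a Spearman correlation across genes of -0.01 with GC content, -0.02 with C content, -0.05 with exon length and -0.03 with the share of unique 50-base windows, and of -0.24 with the Input level per kb. Over the 23 members with at least 10 IP counts these were -0.13, -0.02, -0.04, -0.16 and -0.44. Both sets keep members by their IP counts, which also enter log2 IP/Input. These genes share libraries and sequence, so the values are descriptions. Of the 33 tested members with at least 50% unique windows 26 were lower (median -2.11), and of the 29 others 24 were lower (median -2.49). Members without another gene on either strand gave 35 of 43 lower, and those with one 15 of 19. By stem-loop, 30 of 36 members with the most frequent form and 19 of 24 with other forms were lower. With the 4 members without IP counts, all of the most frequent form, at their bound, the medians were -2.08 and -2.31.

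Related genes outside the clusters were counted in the same mESC fit, in which 42.1% of all tested genes were lower and 39.9% higher. The replacement variants are histone genes used outside S phase, most with poly(A) tails, and 9 of 11 were lower in IP and 1 higher, at a median log2 of -1.87. The higher one was H1fx, a linker histone variant (log2 1.18, SE 0.46, adjusted p = 0.025), named after its value was seen. H2afx, the variant at DNA breaks that also carries a stem-loop, had 42.3 to 43.7 CPM in the Input libraries and 5.1 to 31.7 CPM in the IP libraries, all below Input (log2 -2.31, SE 0.31, adjusted p = 3.2e-06). H2afy, which encodes macroH2A, was at log2 -1.82 (SE 0.10, adjusted p = 1.5e-10), and H3f3b, one of the H3.3 genes, at -1.87 (SE 0.20, adjusted p = 3.8e-07). Of 13 genes that transcribe, process or degrade histone mRNA, 11 were lower and 0 higher, at a median of -1.73. Among them were Coil, the scaffold of Cajal bodies (log2 -1.73, SE 0.13), Upf1, a helicase in histone mRNA decay (-1.78, SE 0.15), and Casp8ap2, a component of histone locus bodies (-2.13, SE 0.14), each with all IP libraries below Input. The 6 tested stem cell markers were all lower, at a median of -1.97. Of the 4 tested fibroblast markers 3 were lower and 1 higher. Part of the lower calls in these lists depend on the TMM scaling. H2afz, Lsm11 and Col1a1 were called lower, yet their pooled CPM ratios of IP to Input were 1.21, 1.20 and 1.35, with overlapping libraries. These names were also chosen after their values were seen. No test compared these lists with the cluster genes.

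K562 gave a different picture on far fewer counts. Here 41 of 65 members passed the filter, 0 were lower in IP and 1 was higher, where 16.8% of all 14522 tested genes were lower and 15% higher. At an unadjusted p under 0.05 the edgeR test had 3 lower and 1 higher, and DESeq2 gave 0 lower and 1 higher after adjustment, while leaving out IP replicate 2 gave 1 lower and 1 higher. A member had a median of 125 counts over the 3 Input libraries and of 1 over the 3 IP libraries, and 7 members reached 10 IP counts. The median log2 IP/Input of the tested members was -0.57, and -0.26 with the 9 members without IP counts at their bound, against -0.17 for all genes. The bounds of these 9 ran from log2 -0.05 (H4C5) to 1.62 (H2AC4), so a loss of their size could not be seen at this depth. In CPM, 14 of the 41 tested members (34.1%) had all IP libraries below all Input libraries, as had 24.4% of all genes. These 14 include the 9 members without IP counts, for which 0 IP counts leave no other outcome. The IP libraries lay above all Input libraries in 2 members (4.88%), H1-2 and H4C8, and in 22.4% of all genes. Over all histone genes the sum was 647 ± 14.8 CPM in Input and 640 ± 71.4 CPM in IP, a ratio of 0.989 ± 0.113 with overlapping libraries.

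H1-2, a widely used linker histone, was the single call. Its counts were 254, 248 and 228 in Input and 9, 7 and 5 in IP, or 21.4, 21.5 and 21.8 CPM against 83.4, 62.9 and 53.7 CPM. Every IP library lay above every Input library, and the log2 IP/Input was 1.42 (SE 0.38, adjusted p = 0.0015). The ratio of pooled CPM was 3.12 with a 95% exact interval of 1.92 to 4.81, which covers counting error only. A correction for gene length took the value to 0.70 and ended the call (adjusted p = 0.13), while the adjusted p was between 1.2e-05 and 0.046 under the other alternatives that tested it. With Input thinned to IP depth H1-2 did not pass the filter and was not tested. Through this gene the H1 sum rose from 61.0, 62.1 and 62.3 CPM to 130, 108 and 75.2 CPM (ratio 1.69 ± 0.444), and without H1-2 the ratio was 0.934, from 12 IP counts, a comparison added after the values were seen. H1-4, equal to H1-2 in Input, had 1, 4 and 1 IP counts (log2 -0.48, SE 0.58, adjusted p = 0.58).

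Among the core classes of K562, H2A had all IP libraries below Input, and H2B, H3 and H4 overlapped. H2B summed to 333, 314 and 333 CPM in Input and 324, 350 and 215 in IP (ratio 0.909 ± 0.223), and H4 to 70.6, 65.8 and 70.7 against 46.3, 80.9 and 107 (ratio 1.13 ± 0.446), both with overlap. H2A summed to 158, 155 and 162 CPM in Input and 111, 153 and 150 in IP (ratio 0.873 ± 0.149). The gap between its groups was small, 152.8 CPM in IP against 155.2 CPM in Input. The 95% exact interval of its pooled Input to IP ratio, 0.851 to 1.59, holds 1, so H2A is not set apart from the other classes. H3 had 7 IP counts in all, with a ratio of 0.726 ± 0.384 that ran from 0.576 to 0.941 when 1 library was left out. H2AC6 had 6, 7 and 10 IP counts and a log2 of -0.57 (SE 0.28, adjusted p = 0.11), and H2BC11 had 7, 5 and 2 and a log2 of -0.71 (SE 0.35, adjusted p = 0.12). H2AC11 and H2BC5 were at 0.15 (SE 0.48, adjusted p = 0.86) and -0.40 (SE 0.44, adjusted p = 0.54). H3C12, H3C10 and H4C9 rested on 1 IP count each, with CPM ratios of 0.309 (95% exact interval 0.00780 to 1.73), 0.247 (0.00623 to 1.38) and 0.340 (0.00858 to 1.91), and H4C5 had 0 IP counts against 289 in Input, a level that 3 IP counts would exceed in CPM, so no fold is given. Some of these genes were called lower under other settings. H2BC11 and H4C5 were called with no count filter, with the GC correction and with the length correction. H2AC6 was called with no count filter and with the length correction, and H2BC5 and H3C10 with the length correction alone.

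Replacement variants in K562 gave 0 lower and 3 higher of 9 tested, at a median log2 of 0.18, where 16.8% of all tested genes were lower and 15% higher. The 3 were H3-3B (1.12, SE 0.37, adjusted p = 0.012), H2AZ1 (1.17, SE 0.40, adjusted p = 0.017) and MACROH2A2 on 5 IP counts (3.56, SE 0.90, adjusted p = 6.7e-04), named after their values were seen. The most abundant per kb were CENPA, the centromeric H3, MACROH2A1 and H3-3A, at 0.08, -0.35 and 0.18 (adjusted p = 0.88, 0.071 and 0.72). Of the 13 histone mRNA genes 5 were lower and 0 higher, at a median of -0.62. NPAT, the activator of histone transcription, was lower with 102, 98.8 and 85.9 CPM in IP against 171, 171 and 171 in Input (log2 -1.05, SE 0.23, adjusted p = 9.5e-05). SLBP, whose product binds the stem-loop, was at 0.19 (SE 0.26, adjusted p = 0.63) and CPSF3, the nuclease that cuts the histone 3′ end, at -0.42 (SE 0.29, adjusted p = 0.29). With no count filter CPSF3 and MACROH2A1 were called lower, and MACROH2A1 also with the GC correction. Of 5 tested erythroid markers 2 were higher and 0 lower.

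The difference between the lines was tested as the interaction of line and library kind over genes that share a symbol. Symbols pair the copies by name only, and 50 members had a partner with counts. Of the 47 tested, 7 had a higher IP/Input in K562 and 0 a lower one, where 16.4% of all 14431 tested genes were higher and 14.4% lower. At an unadjusted p under 0.05 there were 12 higher and 0 lower, and DESeq2 gave 13 higher and 1 lower. The share called higher, 7 of 47, was thus near the background, and the count fell to 3 without K562 IP replicate 1 and to 4 without replicate 3. Their median difference was 1.24 on the log2 scale against 0.16 for all genes, and -0.80 against -0.38 after a correction for gene length. Of the 4 pairs with at least 10 IP counts in both lines 2 were called. Hist1h1c and H1-2 differed by 3.29 in the joint fit (SE 0.53, adjusted p = 1.5e-05). The separate fits of each line, which are scaled on their own, gave -2.50 in mESC and 1.42 in K562. Hist1h4h and H4C8 differed by 1.85 (SE 0.60, adjusted p = 0.018), with IP counts of 5, 6 and 5 in mESC and 4, 6 and 6 in K562, and this call was lost without K562 IP replicate 2 or 3, under RLE scaling, after the length correction and with Input thinned to IP depth. The other pairs of that depth, Hist1h2bn with H2BC15 and Hist1h2bj with H2BC11, differed by 1.42 (SE 0.56, adjusted p = 0.055) and 0.72 (SE 0.74, adjusted p = 0.52).

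The peak lists, given for the mESC IP libraries alone, held no peak at the histone genes. In replicates 1, 2 and 3 there were 11146, 15404 and 15797 peaks, and 0 of the 67 members overlapped one on their strand by 1 bp or more, also with 500 bp added on each side. Of all 21918 protein-coding genes 7.49%, 9.08% and 9.92% held a peak, and of the 15479 genes no longer than the longest member 3.29%, 4.23% and 4.72%. The longest member body was 37455 bp but the median 539 bp, and all 67 together spanned 111 kb. Neither set was thus matched to the members by length, and a shortage of peaks for genes this short was not tested. A count of 0 in 67 genes would allow a share of up to 4.48% if the members were independent. They are clustered and mostly short, so this share cannot be weighed against those above. The nearest peak in any replicate lay 1543 bp from Hist2h4, and the median distance over members was 29466 bp. Within the chr13 cluster (chr13:21715763-23934851, GRCm38), which also holds other genes, there were 14, 16 and 15 peaks.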

How the data were processed

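Chromatin-associated RNA of mESC and K562 was measured in 3 Input and 3 m5C IP libraries each. The authors trimmed reads with Trimmomatic 0.39 and aligned them with HISAT2 2.1.0 to mm10 or hg38, and SAMtools 1.16.1 and MACS2 are also named in the submitters' processing notes. The deposited counts are raw reads per gene. The paper describes removing duplicates and splitting reads by strand before peaks were called. Whether the deposited counts were made after these steps is not given in the sources used here. Summary lines that name no gene (19.0% to 19.3% of records in mESC Input, 71.4% to 71.7% in mESC IP, 26.0% to 26.2% in K562 Input and 60.7% to 61.4% in K562 IP) were left out of library sizes and tests. The study added m5C-modified and unmodified spike-in RNAs to the pull-down and used them for scaling. The spike-in reads were not used here, so values are relative to the gene counts of each library. The peak lists were deposited per mESC IP replicate as positions with no score.

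From the counts, IP was compared with Input per line in edgeR 4.0.16 (R 4.3.3; TMM scaling, filterByExpr, quasi-likelihood test, Benjamini-Hochberg adjustment over all tested genes), and the difference between lines as an interaction over genes sharing a symbol. TMM factors were 0.705 to 0.722 in mESC Input against 1.39 to 1.42 in IP, and 0.923 to 0.932 against 1.07 to 1.09 in K562. Tested on simulated data, 200 of 200 genes changed by 2 on the log2 scale were recovered in mESC (15554 genes simulated), 200 in K562 (13503) and 180 in the joint fit (12105). False calls made up 6.98%, 4.31% and 5.26% of the calls. The changed genes were drawn from genes with higher expected IP counts than most members, so recovery at the members' depth was not tested. Levels are CPM of gene counts per kb of exon. Intervals are 95% exact ones, and floors are 3 counts; both cover counting error only, since reads carried no molecular identifiers. The IP depth limits precision, as a median member had 6 IP counts in mESC and 1 in K562. Gene models came from GENCODE annotations of GRCm38 and GRCh38 of another release than the one the authors counted with, so exon lengths, levels per kb, overlaps and the place of the stem-loop relative to the gene model rest on other models than the counts. The stem-loop was searched on the gene's strand by the 16-base pattern known as the histone 3′ stem-loop.

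The numbers of the replicates were not taken as pairs: the deviations of same-numbered Input and IP libraries correlated at -0.0057 to 0.0155 in mESC and 0.0226 to 0.0287 in K562. Named genes were the 2 members of each class with the highest Input level per kb, the 3 highest and 3 lowest log2 IP/Input among called members with at least 10 IP counts, members with a peak in all 3 replicates, and the 3 variants and 3 processing genes with the highest Input level; any other name was chosen after its values were seen. Members and lists were chosen with earlier results of these data known. Alternatives were RLE and library-size scaling, DESeq2 1.42.0, no count filter, GC and length corrections, a replicate block, Input thinned to IP depth, leaving out each library, another denominator, and members that overlap no other gene.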

Additional observations from a re-analysis of the deposited data

Results flagged for a closer look

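Among the genes paired by name, 7 had a log2 IP/Input that was higher in K562 than in mESC by the interaction test (edgeR quasi-likelihood test, adjusted p under 0.05). Hist1h1c and H1-2 differed by 3.29 and Hist1h4h and H4C8 by 1.85, both with at least 10 IP counts in each line. Hist1h2bk and H2BC12 differed by 3.32, with 2 IP counts in mESC and 7, 1 and 0 in the K562 replicates. This call was lost under RLE and library size scaling, the GC and length corrections, without mESC IP replicate 3 or K562 IP replicate 1 (0.93, adjusted p = 0.82), and with the K562 Input libraries summed, over a range of adjusted p from 0.015 to 0.82. The other 4 pairs had at most 3 K562 IP counts and very few Input counts: Hist1h2bm and H2BC14 (5.65, from 7 Input counts in K562), Hist1h1a and H1-1 (6.39, from 12), Hist1h4f and H4C6 (9.77, from 0) and Hist1h3g and H3C8 (9.78, from 1). The sizes of the last 2 depend on the prior count of the fit and are no bounds.

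The summed H1 counts moved in opposite directions: the ratio of IP to Input was 1.69 in K562, with all 3 IP libraries above Input, and 0.357 in mESC, with all 3 below. The difference between these ratios was not tested.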

How the results depend on the processing

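In mESC the count of members lower in IP was 47 to 51 when 1 library was left out, and within 1.5 times of 50 under the other alternatives except 1: with Input thinned to IP depth 6 of the 18 members that could be tested were called. In K562, where 1 member was called, 7 were called with no count filter (3 lower and 4 higher), 3 with the GC correction, 8 with the length correction (all lower), 0 of 1 tested after thinning, and 1 to 2 with 1 library left out. The difference between lines was called for 4 members with RLE scaling, 13 with DESeq2, 3 with the length correction, 1 after thinning, and 3 to 10 with 1 library left out. With the replicate block, 49 members were lower in mESC, 1 was called in K562 and 9 in the interaction, and the block changed no call of a gene named by the rule. The same-numbered libraries correlated best in 3 of 3 K562 cases and in 1 of 3 mESC cases, which is a hint from the data and not the design. After seeing the data, the K562 Input libraries were summed to 1 sample, which left 1 call in K562 and 5 in the interaction, its lone Input sample being assumed to vary like the other groups.

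With all counted records as the denominator, summary lines included, the class ratios of IP to Input were 0.125 (H1), 0.142 (H2A), 0.227 (H2B), 0.117 (H3), 0.136 (H4) and 0.149 (all) in mESC, and 0.888 (H1), 0.460 (H2A), 0.478 (H2B), 0.383 (H3), 0.598 (H4) and 0.521 (all) in K562. The K562 H1 ratio thus passed below 1, as it did without H1-2 (0.934). With 1 library left out, the ratio over all members was 0.410 to 0.436 in mESC and 0.928 to 1.04 in K562, and that of K562 H1 1.48 to 1.92. No mESC H2A member is free of another gene, so that alternative gave no value there. Of the named genes, Hist1h2bb and Hist1h2bc passed above 0 after thinning (log2 0.58 and 0.074), and Hist1h1b, Hist2h2ac, Hist1h2bn, Hist1h2bm, Hist1h2be, Hist1h4h, Coil, Upf1 and H3f3b in mESC and NPAT in K562 lost their calls there, on the fewer Input counts that thinning leaves, with log2 values of -0.996 (Hist1h2bn) to -0.33 (NPAT).

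Depth limits these results: 23 of 67 mouse and 7 of 65 human members reached 10 IP counts, and in K562 a loss was not detectable for most members without IP counts.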
